A study of Mus musculus with 20 samples.

Results

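The metallothioneins are small, cysteine-rich proteins that bind zinc and copper and lower the amount of free metal in the cytoplasm. Mt1 and Mt2 are switched on in many tissues by zinc, glucocorticoids, oxidative stress and inflammatory cytokines, and in the brain they are known mainly from astrocytes, ependyma and other non-neuronal cells. Mt3 is a brain form, also called growth inhibitory factor, that responds little to metals. The group examined here was Mt1, Mt2 and Mt3 together with Mtf1, the zinc-sensing transcription factor that binds metal response elements, and Slc30a1, the plasma membrane zinc exporter ZnT1 that this factor also controls. These 5 genes were found by their symbols among 45700 genes of the deposited expression table, and all 5 belonged to the 15247 genes that reached a mean of 1 FPKM (the fragments assigned to a gene, scaled to transcript length and to the size of the library) and were tested.

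The libraries came from whole brains of the "Taiwanese" line, a severe mouse form of spinal muscular atrophy (SMA), kept as congenic FVB. SMA mice (Smn-/-; SMN2tg/0) lacked mouse Smn and carried the human SMN2 transgene, and the control littermates were heterozygous (Smn-/+; SMN2tg/0), so that every animal carried the transgene and no wild-type mouse was included. Brains were taken at postnatal day 5 (early-symptomatic, 2 libraries per genotype and fraction) and at day 7 (late-symptomatic, 3 per genotype and fraction). Cytoplasmic lysates were spun through sucrose gradients, and the RNA of all fractions (total) or of the polysomal fractions (polysomal, RNA loaded with several ribosomes) was sequenced, giving 20 libraries in 8 groups. The labels do not say whether the total and polysomal libraries of one number came from the same lysate, so the comparisons in the 2 fractions of a stage may not be independent of each other. The deposited FPKM values carry no read counts per gene, so counting error was not separated from the spread between libraries. Smn1 measured over the whole gene ran from 8.61 to 16.7 FPKM in the 10 control libraries and from 9.34 to 17.5 in the 10 SMA libraries. That value covers the whole gene, including parts the null allele may keep, and reads of the similar SMN2 transgene could be counted there, so it did not check the genotype labels.

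Mt3, Mt2 and Mt1 lie in this order on the plus strand of chromosome 8 (GRCm38). Mt3 (ENSMUSG00000031760.8) spans bases 94152607 to 94154148, Mt2 (ENSMUSG00000031762.6) spans 94172618 to 94173567 and Mt1 (ENSMUSG00000031765.7) spans 94179089 to 94180325, with gaps of 18469 and 5521 bases between them. Mtf1 (ENSMUSG00000028890.11) lies on chromosome 4, bases 124802104 to 124862171, and Slc30a1 (ENSMUSG00000037434.7) on chromosome 1, bases 191886130 to 191913247, both on the plus strand. The coding sequences of the 3 metallothioneins, read from Gencode M21 transcripts, are shown because their cysteine codons (TGC and TGT in frame, in capitals) are what binds the metal and because their likeness bears on how reads were assigned.
Mt1: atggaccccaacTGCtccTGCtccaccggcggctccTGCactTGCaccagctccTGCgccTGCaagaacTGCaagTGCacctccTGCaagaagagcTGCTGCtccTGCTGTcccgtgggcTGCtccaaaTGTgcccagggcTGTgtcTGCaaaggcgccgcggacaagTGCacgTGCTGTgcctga
Mt2: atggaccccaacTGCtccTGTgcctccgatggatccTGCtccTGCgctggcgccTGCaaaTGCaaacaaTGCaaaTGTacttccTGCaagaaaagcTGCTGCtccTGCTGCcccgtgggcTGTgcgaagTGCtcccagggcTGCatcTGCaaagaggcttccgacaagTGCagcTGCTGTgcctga
Mt3: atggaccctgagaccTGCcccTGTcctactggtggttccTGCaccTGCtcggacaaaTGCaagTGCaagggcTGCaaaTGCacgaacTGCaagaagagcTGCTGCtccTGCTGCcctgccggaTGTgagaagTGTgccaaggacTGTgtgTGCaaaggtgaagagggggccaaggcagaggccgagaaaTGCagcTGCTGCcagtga

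Each of the 3 held 20 cysteine codons, which made up 32.8% of the 61 codons of Mt1 and of Mt2 and 29.4% of the 68 codons of Mt3. Mt1 and Mt2 were identical at 79.6% of aligned coding bases, Mt1 and Mt3 at 66.2%, and Mt2 and Mt3 at 67.6%. The longest run of bases that any pair shared across the spliced transcripts was 27, far shorter than a 100-base read, and no transcript of another gene shared a run of 50 bases with Mt1 or Mt3. Mt2 shared such a run with Gm45774, an antisense gene of Gencode M21 that overlaps it and for which the table held 0 values under that name. The kit kept strand, but the programs were run at their defaults, which do not use it, so antisense reads over Mt2 could not be told apart from Mt2.

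The 280 bases around each annotated start (250 before it and 30 from it, RefSeq, GRCm38.p6, plus strand) are shown for the 3 clustered genes because Mt1 and Mt2 moved together with genotype and Mt3 did not pass a genotype test. Capitals mark the core of the metal response element, searched as TGCGCNC and TGCACNC on both strands. The windows are chr8:94178839-94179118 for Mt1, chr8:94172368-94172647 for Mt2 and chr8:94152357-94152636 for Mt3.
Mt1: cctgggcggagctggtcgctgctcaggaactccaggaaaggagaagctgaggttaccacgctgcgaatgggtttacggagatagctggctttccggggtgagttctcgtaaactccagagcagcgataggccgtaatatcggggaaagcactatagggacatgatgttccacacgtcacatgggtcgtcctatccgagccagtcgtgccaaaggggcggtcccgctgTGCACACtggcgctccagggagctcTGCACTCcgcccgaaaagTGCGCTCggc
Mt2: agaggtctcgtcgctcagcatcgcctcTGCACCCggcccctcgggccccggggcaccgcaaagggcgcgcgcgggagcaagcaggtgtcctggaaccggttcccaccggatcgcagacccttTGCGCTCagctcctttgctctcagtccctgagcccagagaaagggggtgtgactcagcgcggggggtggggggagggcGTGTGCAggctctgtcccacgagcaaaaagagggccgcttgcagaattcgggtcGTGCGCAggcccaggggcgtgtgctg
Mt3: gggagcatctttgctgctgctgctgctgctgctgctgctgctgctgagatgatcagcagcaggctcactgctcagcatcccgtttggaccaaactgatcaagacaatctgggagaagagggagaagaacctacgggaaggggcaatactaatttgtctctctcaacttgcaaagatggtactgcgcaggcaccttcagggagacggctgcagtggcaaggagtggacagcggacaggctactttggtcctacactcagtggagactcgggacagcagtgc

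The Mt1 window held 3 cores, all on the plus strand, and the Mt2 window held 4, of which 2 were on the minus strand. The Mt3 and Mtf1 windows held 0 and the Slc30a1 window held 1. Among 32851 RefSeq promoters of the same length, 24.1% held at least 1 core, 1.73% at least 3 and 0.405% at least 4. The match is one of letters and was not shown to be a bound site, and a window without the letters says nothing of the factor. The antioxidant core TGACNNNGC occurred once in the Mt2 window and once in the Slc30a1 window, against 11.5% of all promoters. Bases outside these windows were not searched, so cores of either kind beyond them, for Mt1 too, were not counted.

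In control brains the order of the levels was Mt3, then Mt1, then Mt2 in all 10 libraries, on the FPKM scale, which allows for transcript length. At day 5 the control total libraries held 54.7 and 47.1 FPKM of Mt1, 36.0 and 36.4 of Mt2, and 133.6 and 109.8 of Mt3. At day 7 the control total libraries held 145.9, 136.2 and 126.0 FPKM of Mt1. Mt2 stood at 60.2, 49.2 and 49.0 FPKM and Mt3 at 219.6, 197.1 and 214.3 in the same libraries. For each of these genes every day 7 library was above every day 5 library, in controls and in SMA brains and in both fractions. Mt4, the fourth gene of the cluster, known from stratified epithelia, lay between 0 and 0.65 FPKM in the 20 libraries and was not tested. Mtf1 and Slc30a1 were about an order of magnitude lower than Mt3, at 6.62 to 11.1 and 8.51 to 11.1 FPKM.

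The first comparison asked how the genes moved between day 5 and day 7 in control brains. In total RNA 3 of the 5 genes passed an unadjusted p of 0.05 (limma), against 40.3% of all genes tested, and all 3 were higher at day 7. Mt1 rose 2.67-fold (log2 change 1.42, SE 0.10), Mt3 1.73-fold (0.79, SE 0.11) and Mt2 1.45-fold (0.54, SE 0.11), with Benjamini-Hochberg adjusted p of 0.00902, 0.0205 and 0.041 (limma, n = 2 and 3). In polysomal RNA the same 3 genes passed, against 42% of genes, with log2 changes of 1.90 (SE 0.12) for Mt1, 1.06 (SE 0.23) for Mt2 and 0.87 (SE 0.22) for Mt3, and adjusted p of 0.006, 0.0434 and 0.0584 (limma). Mtf1 and Slc30a1 did not pass in either fraction. Changes between these days were thus common among all genes, and Mt1 stood at the 98.1 percentile of changes in total RNA. Whether the stages were prepared or sequenced together is not given by the labels. Age could therefore not be told apart from the occasion of preparation or sequencing.

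**Figure D1:**
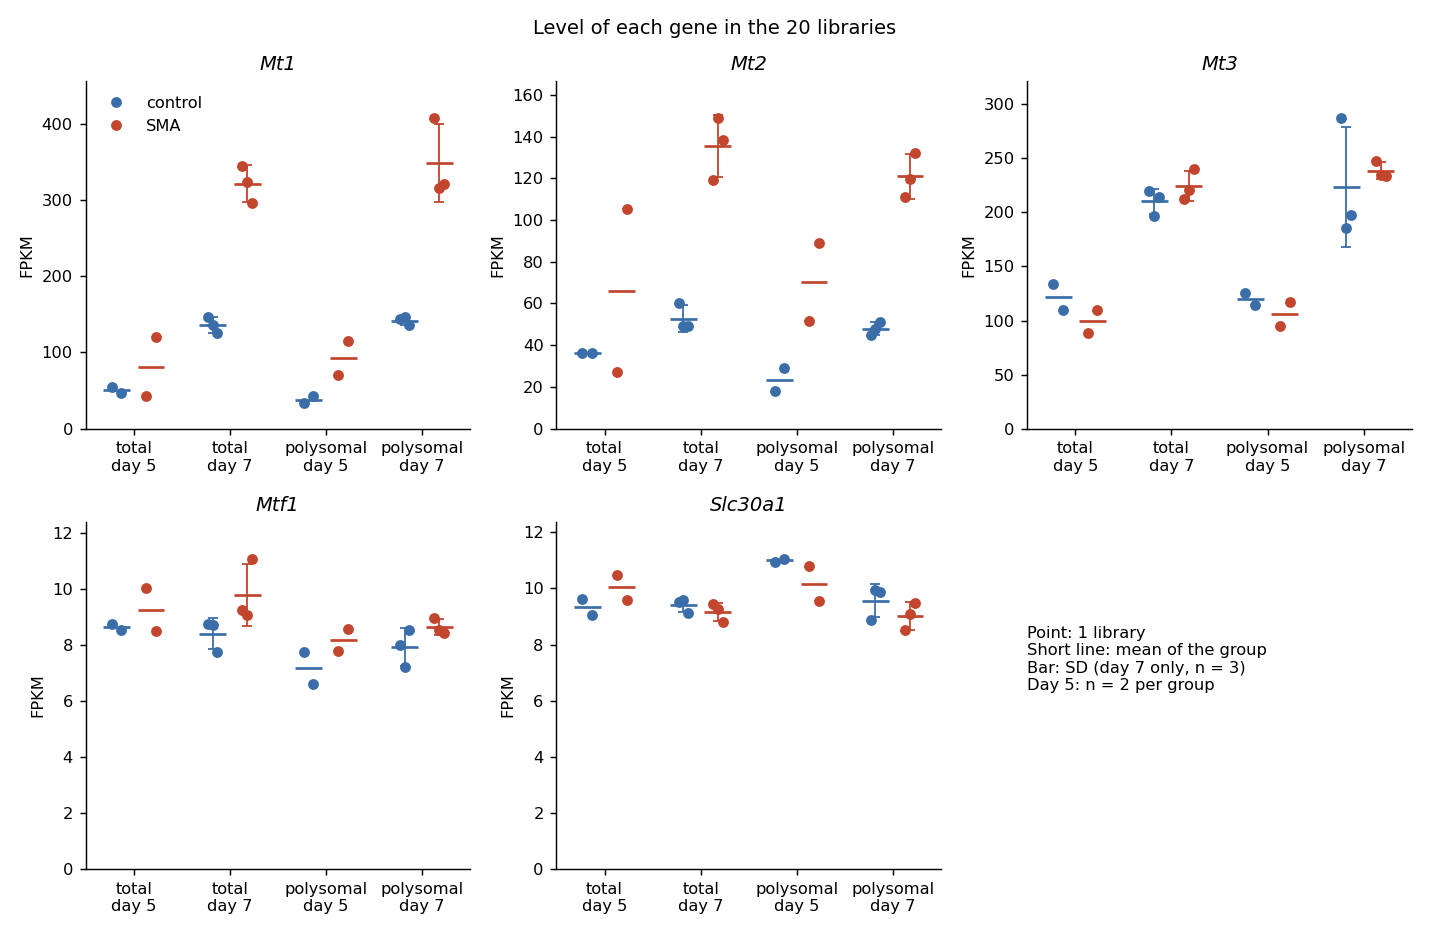
FPKM (vertical axes, from 0) of the 5 genes in each library, by fraction and postnatal day, controls in blue and SMA in red; points are libraries, short lines group means and bars the SD of the 3 day 7 libraries. All 6 SMA libraries of day 7 lie above all 6 controls of that day for Mt1 (296.5 to 407.2 against 126.0 to 146.1 FPKM) and for Mt2 (110.8 to 148.7 against 44.8 to 60.2 FPKM), while Mt3, Mtf1 and Slc30a1 show no such gap.

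At day 7 Mt1 and Mt2 were more than doubled in SMA brains in both fractions. In total RNA the SMA libraries held 344.2, 324.0 and 296.5 FPKM of Mt1, and even the lowest of them was 2.03 times the highest control. The change was 2.36-fold (log2 1.24, SE 0.08, 95% interval 1.04 to 1.44, n = 3 per genotype), with an adjusted p of 0.0201 (limma, Benjamini-Hochberg). Mt2 in the same libraries held 119.2, 148.7 and 138.6 FPKM, with no overlap with the controls. Its change was 2.57-fold (log2 1.36, SE 0.12), with an adjusted p of 0.0535 (limma), just above the threshold. Both genes thus passed the unadjusted test, 2 of 5, against 9.54% of all genes tested, and after adjustment 1 of 5 did, Mt1, among 17 genes in all.

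The polysomal RNA of day 7 gave nearly the same changes. SMA libraries held 407.2, 316.0 and 321.2 FPKM of Mt1, against 144.1, 146.1 and 135.6 in controls. Mt2 was at 110.8, 119.8 and 131.9 FPKM, against 44.8, 48.0 and 51.2. The lowest SMA library was 2.16 times the highest control for either gene. Log2 changes were 1.28 (SE 0.11) for Mt1 and 1.33 (SE 0.08) for Mt2, with adjusted p of 0.0593 and 0.0273 (limma). Here 2 of 5 genes passed the unadjusted test, against 10.7% of all genes, and 1 of 5, Mt2, passed after adjustment, among 14 genes in all. For a single gene and 3 libraries against 3, the smallest p that an exact two-sided permutation test can give is 0.1, and Mt1 and Mt2 reached it in both fractions.

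At day 5 the libraries differed more among themselves. In polysomal RNA the SMA libraries held 70.0 and 114.9 FPKM of Mt1 against 33.9 and 42.6 in controls, and 51.5 and 88.8 FPKM of Mt2 against 18.02 and 29.1. Both SMA libraries were above both controls for either gene. The log2 changes were 1.24 (SE 0.31, unadjusted p = 0.0228) for Mt1 and 1.56 (SE 0.41, unadjusted p = 0.0259) for Mt2, and neither passed after adjustment (adjusted p = 0.386 for both, limma). Those 2 of 5 genes compare with 12.5% of all genes at the same threshold, and without 1 of the control libraries, replicate 1, the unadjusted p rose to 0.104 for Mt1 and 0.0974 for Mt2 (limma), with log2 changes of 1.07 and 1.21, still above a doubling. It was 0.0605 for Mt1 without control replicate 2, where the log2 change was larger than with all libraries, and 0.0777 for Mt2 without SMA replicate 2 (1.17).

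In total RNA of day 5 the 2 SMA libraries disagreed. Replicate 1 held 42.6 FPKM of Mt1 and 27.1 of Mt2, below both controls, and replicate 2 held 119.8 and 105.2 FPKM, above both controls. None of the 5 genes passed the unadjusted test, against 8.25% of all genes, and the intervals were wide: the log2 change of Mt1 was 0.49 (95% interval -1.30 to 2.29) and that of Mt2 0.56 (-1.76 to 2.88). Without replicate 1 the log2 changes were 1.24 for Mt1 and 1.54 for Mt2, and without replicate 2 they were -0.25 and -0.41. Each of these fits leaves 1 SMA library, so it holds no measure of the spread among SMA brains. The library of replicate 1 stood apart more widely. Its median log2 deviation from the mean of all libraries was -0.31 among 2614 protein-coding genes with the shortest transcripts (up to 2018 bases) and 0.23 among 2614 with the longest, the widest contrast of the 20 libraries. Mt1, Mt2 and Mt3 are short transcripts (549, 511 and 536 bases in their spliced form), and the part of this in the day 5 values was not tested beyond a correction for transcript length, under which the log2 changes were 0.72 for Mt1 and 0.71 for Mt2 and 0 of 5 genes passed. That correction took the longest annotated transcript of each gene, which for Mt1 has 1 exon and 1085 bases, and with the principal transcript (549 bases for Mt1) the changes were 0.70 and 0.76 and again 0 of 5 passed. Polysomal replicate 1 of the same group, at 70.0 FPKM of Mt1, was above its controls.

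**Figure D2:**
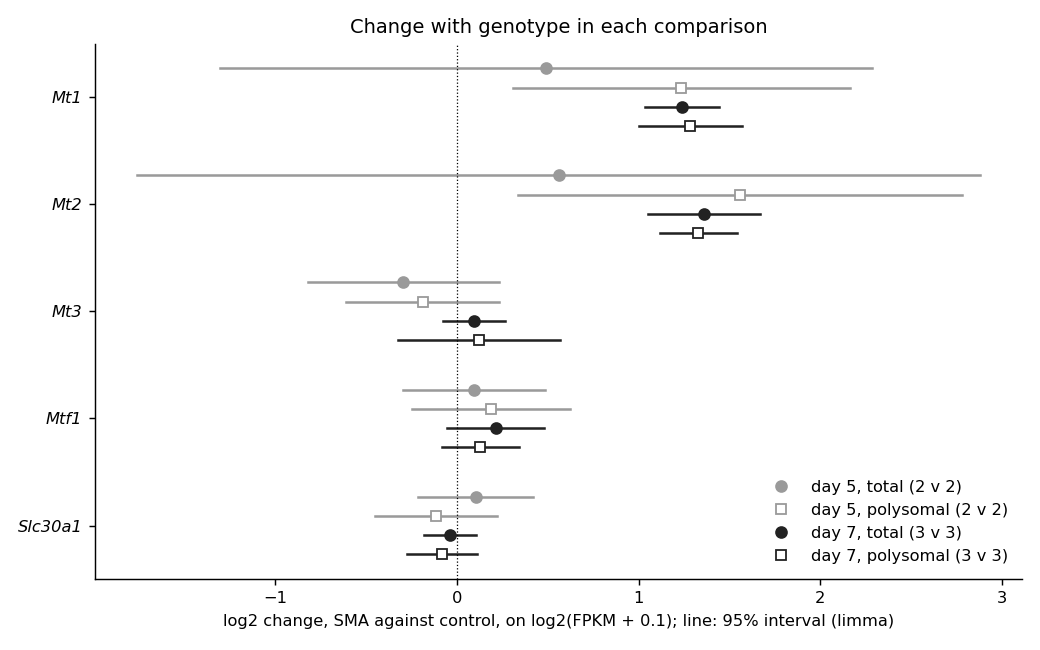
Log2 change between SMA and control (horizontal axis, on log2(FPKM + 0.1)) of the 5 genes in the 4 comparisons, with 95% intervals from limma. Intervals of Mt1 and Mt2 lie above 0 in all comparisons except day 5 total RNA, and those of Mt3, Mtf1 and Slc30a1 include 0 in all 4.

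The difference between the changes at day 7 and day 5 was tested directly. It passed for 0 of 5 genes in total RNA, against 10.1% of all genes, and for 0 of 5 in polysomal RNA, against 13.7%. For Mt1 the difference was 0.75 (95% interval -0.46 to 1.96) in total and 0.05 (-0.67 to 0.77) in polysomal RNA on the log2 scale. A change between the stages of up to about these bounds could thus not be seen with these libraries. The value in total RNA rests on a day 5 change whose sign depended on which SMA library was kept, as described above. Mt3 came closest, at 0.39 in total RNA (unadjusted p = 0.0552, limma). With a correction for transcript length the value of Mt3 was 0.21 (unadjusted p = 0.148, limma). Mtf1 then came closest, at 0.33 (unadjusted p = 0.0549, limma).

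The fractions were compared next, to set the RNA on polysomes beside the RNA in the cytoplasm. Over all libraries Mt1, Mt2 and Mt3 had polysomal to total ratios with medians of 1.03, 0.887 and 1.05 in 10 pairs of same-numbered libraries, with ranges of 0.621 to 1.64, 0.50 to 1.90 and 0.924 to 1.31. The test of polysomal against total RNA passed for 1 of 5 genes, Mtf1 (log2 change -0.17, SE 0.05, adjusted p = 0.0128, limma), against 51.2% of all genes. Translation efficiency (TE), the polysomal level relative to the total level, changed with genotype for 0 of 5 genes at day 5, against 2.32% of all genes, and for 0 of 5 at day 7, against 2.07%. At day 7 the TE change was 0.04 (95% interval -0.28 to 0.37) for Mt1 and -0.03 (-0.38 to 0.32) for Mt2 on the log2 scale, so the rise of both was seen alike in total and in polysomal RNA within these bounds. At day 5 the intervals were far wider, with changes of 0.74 (-1.10 to 2.59) for Mt1 and 1.00 (-1.40 to 3.39) for Mt2. FPKM is scaled within each library, so TE here is relative to the other RNA of the fraction. The paper reports a lower fraction of ribosomes on polysomes in SMA brain at both symptomatic stages. A loss of ribosomes shared by all RNA would not show on this scale.

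Mt3 did not pass a genotype test in any of the 4 comparisons. Its total RNA level at day 7 was 212.4, 220.8 and 240.1 FPKM in SMA against 219.6, 197.1 and 214.3 in controls (log2 change 0.09, 95% interval -0.08 to 0.26). In polysomal RNA of day 7 it was 247.7, 234.7 and 233.5 FPKM against 287.0, 185.8 and 198.0 (0.12, -0.33 to 0.57). At day 5 its SMA levels were 88.6 and 109.96 FPKM in total and 95.04 and 117.2 in polysomal RNA, against 133.6 and 109.8 and 125.7 and 114.8 in controls, with the genotypes overlapping in both (log2 changes -0.30 and -0.19). With the correction for transcript length these day 5 changes were smaller, at -0.135 and -0.082. The interval in total RNA of day 7 excluded a rise of the size seen for Mt1 and Mt2.

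The order of the 3 genes therefore differed between genotypes at day 7. Mt1 was above Mt3 in all 6 SMA libraries of day 7, and Mt3 above Mt1 in all 6 controls. The Mt1 to Mt3 ratio ran from 1.23 to 1.62 in SMA total RNA and from 0.588 to 0.691 in controls, and from 1.35 to 1.64 against 0.502 to 0.786 in polysomal RNA. At day 5 Mt1 exceeded Mt3 in 1 of 4 SMA libraries, total replicate 2. Mt2 was the lowest of the 3 in all 20 libraries. The Mt1 to Mt2 ratio overlapped between genotypes at day 7 (2.14 to 2.89 in SMA and 2.42 to 2.77 in control total RNA) and was lower at day 5 (1.14 to 1.88 over all 8 libraries). Summed over the 3 genes, metallothionein FPKM at day 7 made up 0.0757% to 0.0817% of all FPKM in SMA total RNA and 0.0418% to 0.0444% in controls, and Mt3 made up 31.4% to 35.6% of that sum against 51.5% to 55.0%.

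**Figure D3:**
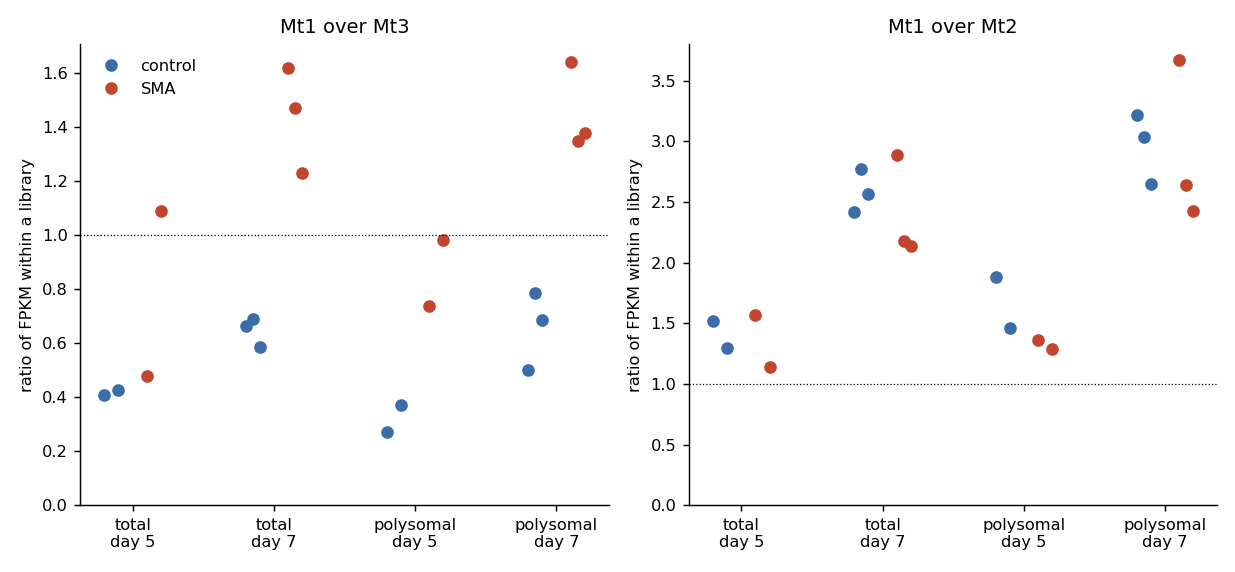
Ratio of Mt1 to Mt3 (left) and of Mt1 to Mt2 (right) FPKM within each library, by fraction and postnatal day; the dotted line marks equal levels. Mt1 exceeds Mt3 in the 6 SMA libraries of day 7 and in 1 SMA library of day 5, and the Mt1 to Mt2 ratio is above 2 in every day 7 library and below 2 in every day 5 library.

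Across the 20 libraries Mt1 and Mt2 followed each other closely. Pearson's r of log2(FPKM + 0.1) was 0.903, and 0.972 after the mean of each stage and fraction was subtracted, which leaves the differences between genotypes and between libraries. For Mt1 and Mt3 r was 0.808 before and 0.182 after that step. These are descriptions over libraries that share genotypes, stages and possibly brains, and genotype was not removed from either value. By the same measure, with genotypes kept together and 14335 genes compared, the genes most like Mt1 after Mt2 (0.972) were Scrg1 (0.941), Mgp (0.939), a matrix protein that inhibits calcification, Gstz1 (0.938), an enzyme of tyrosine breakdown, and Apod (0.937), a lipid-binding apolipoprotein of glia. Their log2 changes with genotype in total RNA of day 7 were 0.71, 0.50, 0.22 and 1.26. The genes most like Mt2 after Mt1 were Gstz1 (0.923), Scrg1 (0.918), Kcnip1 (0.913) and Mgp (0.913). The genes most like Mt3 were Ttc9b (0.848), Ndufaf3 (0.841), Tsr3 (0.836), Ndufa2 (0.834) and RP24-490H13.4 (0.832).

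**Figure D4:**
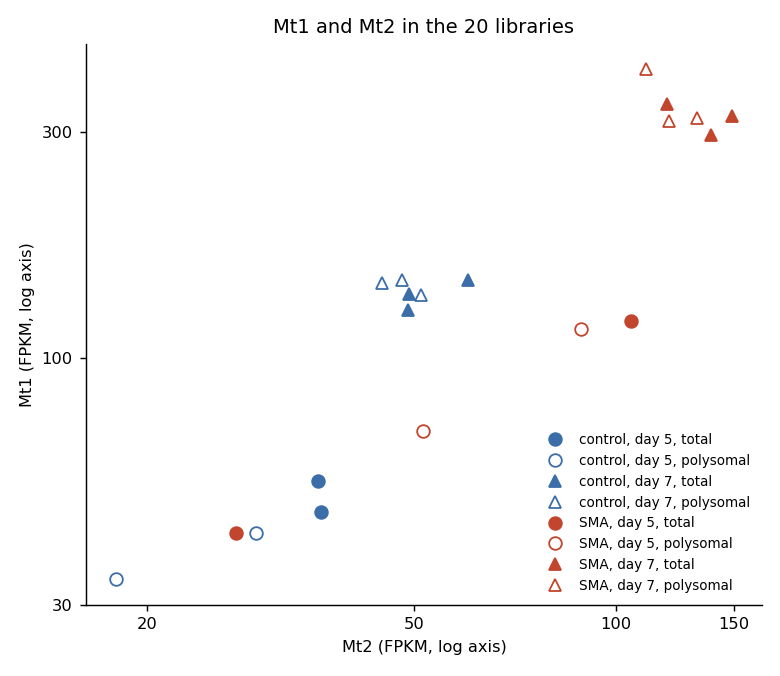
Mt1 against Mt2 (FPKM, both axes logarithmic) in the 20 libraries, with circles for day 5, triangles for day 7, filled symbols for total and open symbols for polysomal RNA. Day 7 libraries lie higher in Mt1 at a given Mt2 than day 5 libraries, and within day 7 the 6 SMA libraries stand apart from the 6 controls on both axes.

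Mtf1 and Slc30a1, the regulator and the exporter, did not pass a genotype test in any of the 4 comparisons. Mtf1 in total RNA of day 7 had a mean of 9.78 ± 1.11 FPKM in SMA and 8.40 ± 0.56 in controls (SD, n = 3), a log2 change of 0.21 (95% interval -0.05 to 0.48, unadjusted p = 0.0945, limma). All 3 SMA libraries were above the controls there, and in polysomal RNA of day 7 the genotypes overlapped. Slc30a1 was at 9.17 ± 0.33 against 9.42 ± 0.24 FPKM in total and 9.02 ± 0.49 against 9.57 ± 0.60 in polysomal RNA of day 7 (log2 changes -0.04 and -0.08). Its 95% interval at day 7 ran from -0.18 to 0.10 in total RNA, which leaves out a change of the size of Mt1 or Mt2. Between the stages its day 7 libraries lay below its day 5 libraries in polysomal RNA of controls (9.95 FPKM at most against 10.95 and 11.05) and in both fractions of SMA brains, and overlapped in total RNA of controls, and the stage test in controls did not pass in polysomal RNA (unadjusted p = 0.0835, limma), though it did after the transcript length correction (0.0382).

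The other zinc transporters were counted next, to be read against the share of all genes called in the same comparisons of genotypes (8.25% and 12.5% in total and polysomal RNA of day 5, 9.54% and 10.7% at day 7). Among 9 other zinc exporters of the Slc30 family, 7 were tested, and 0 passed the unadjusted test at day 7 in either fraction, 0 in total RNA of day 5 and 1, Slc30a7, a carrier of the early secretory pathway, in polysomal RNA of day 5 (lower, log2 change -0.25). Without SMA replicate 1 of day 5, which leaves 1 SMA library, its change was -0.24 and 0 of the 7 passed. The median log2 change of the 7 exporters at day 7 was -0.05 in total and -0.03 in polysomal RNA, against a median near 0 over all genes tested. At day 5 the median was 0.03 in total and -0.23 in polysomal RNA, where 1 of the 7 exporters lay above 0. Of 14 zinc importers of the Slc39 family 11 were tested, and 0 were higher in any of the 4 comparisons. Slc39a8 (ZIP8), an importer of zinc, manganese and other metals, was lower in all 4. It held 4.51 ± 0.43 FPKM in control and 2.39 ± 0.20 in SMA total RNA of day 7 (SD, n = 3), and 5.24 ± 0.89 against 2.71 ± 0.15 in polysomal RNA. Its log2 changes were -0.89 and -0.91 at day 7 and -1.06 and -1.01 at day 5 in total and polysomal RNA, the genotypes did not overlap in any of them, and the adjusted p ran from 0.132 to 0.551 (limma), so none passed after adjustment. Slc39a10, which Mtf1 is known to repress, was lower in polysomal RNA at day 5 (-0.34) and day 7 (-0.24), and Slc39a1 in polysomal RNA at day 5 (-0.30). Without SMA replicate 1 of day 5, 2 importers were lower in polysomal RNA, Slc39a8 (-1.17) and Slc39a10 (-0.46), and Slc39a1 was at -0.28 and not called.

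Of 7 partners and targets of Mtf1, a list that holds Mtf1, Slc30a1 and Slc39a10 too, 1 was higher in total RNA of day 7. In polysomal RNA of day 7, 1 was higher and 1 lower. The shares of all genes called were 9.54% and 10.7%, and single calls in so short a list are not read further. The gene that was higher both times was Csrp1, a LIM-domain protein, with log2 changes of 0.56 (SE 0.14) and 0.61 (SE 0.13) and adjusted p of 0.344 and 0.26 (limma), and the lower one was Slc39a10. Of 11 copper-handling genes tested 1 passed in each fraction at day 7, a share near that of all genes. They were Sod1, the copper and zinc superoxide dismutase, in total RNA (281.9 ± 6.4 against 263.6 ± 5.3 FPKM, log2 change 0.10), and Atp7a, the copper-exporting ATPase, in polysomal RNA (-0.33). At day 5, 0 of the 11 passed in total RNA, against 8.25% of all genes. In polysomal RNA of day 5, 1 was higher and 3 were lower, against 12.5% of all genes. The higher one was Cp, the copper ferroxidase ceruloplasmin (0.67). The lower ones were the copper chaperones Atox1 (-0.37) and Cox17 (-0.25) and the ATP7B partner Commd1 (-0.65). Without SMA replicate 1 of day 5, the changes in polysomal RNA were -0.28 for Atox1, -0.30 for Cox17 and -0.64 for Commd1. Their sizes were thus similar and their calls were not kept. Of the 3 neighbours of the cluster that were tested (Ogfod1, Bbs2 and Nup93), 0 were higher in any of the 4 comparisons and 1 was lower, Ogfod1 in polysomal RNA of day 7 (-0.38), named after its values were seen, where the genotypes overlapped.

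Genes of other known inducers of Mt1 and Mt2 were counted in the same way. These lists were chosen with earlier results of these data known, so their counts are not independent evidence. Of 13 glucocorticoid-induced genes tested, 5 were higher and 0 lower in SMA in each fraction at day 7, and 6 and 5 were higher and 0 lower in total and polysomal RNA of day 5. The shares of all genes called were 9.54% and 10.7% at day 7 and 8.25% and 12.5% at day 5 in total and polysomal RNA. Their median log2 change was 0.12 in total and 0.16 in polysomal RNA of day 7, and 0.44 and 0.33 at day 5, against medians within 0.0134 of 0 over all genes tested. Without SMA replicate 1 of day 5, the day 5 medians were 0.50 in total and 0.70 in polysomal RNA. Sult1a1, a sulphotransferase, had the lowest adjusted p, with 7.40 ± 0.45 FPKM in SMA and 1.91 ± 0.36 in control polysomal RNA of day 7 (log2 change 1.91, adjusted p = 0.0483, limma), and it was higher in all 4 comparisons without overlap. Fam107a, a stress-responsive actin-binding protein, was higher in all 4 as well (log2 changes from 1.73 to 2.19), and so was Cdkn1a, the cell cycle inhibitor p21 (0.52 to 1.00). Per1, a clock gene, was higher at day 5 (0.80 and 0.88 in total and polysomal RNA), with values of 0.06 and 0.16 at day 7. The remaining calls of the list, Fkbp5 in all 4 comparisons, Zbtb16 in total RNA at both stages and Tsc22d3 in polysomal RNA of day 7, were named after their values were seen. Nr3c1, the glucocorticoid receptor itself, did not pass in any of the 4 comparisons of genotypes, and at day 7 its log2 changes were -0.26 in total and -0.27 in polysomal RNA. Of 9 oxidative stress genes tested 2 were higher in total RNA of day 7, Nqo1 (0.39) and Gsr (0.24), and in polysomal RNA Nqo1 was higher (0.59) and Txn1, the cytoplasmic thioredoxin, lower (-0.10). At day 5, 0 of the 9 were higher and 1 was lower in each fraction, Txn1 (-0.64 in total and -0.39 in polysomal RNA), and without SMA replicate 1 the change in polysomal RNA was -0.45 and no longer called. Of 7 genes of IL-6 and STAT3 signalling 0 passed at day 7, while at day 5 Stat3 (0.53) and Lifr (0.40) were higher in total RNA and Il6st, the shared receptor chain, was lower in polysomal RNA (-0.60). When SMA replicate 1 of day 5 was left out, Stat3 (0.38) was still called higher in total RNA and Il6st (-0.67) lower in polysomal RNA, Lifr (0.39) was not called, and Cebpd (1.06), named after its values were seen, was. Without SMA replicate 1 of day 5, 6 and 4 of the 13 glucocorticoid-induced genes were higher in total and polysomal RNA, against 8.39% and 7.76% of all genes, but they were not all the same genes. Cdkn1a was no longer called in either fraction (0.50 and 1.14), nor Fam107a (2.38) and Per1 (1.07) in polysomal RNA, while Pdk4 was called in both (0.85 and 0.70) and Zbtb16 in polysomal RNA (0.85), Pdk4 being named after its values were seen.

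**Figure D5:**
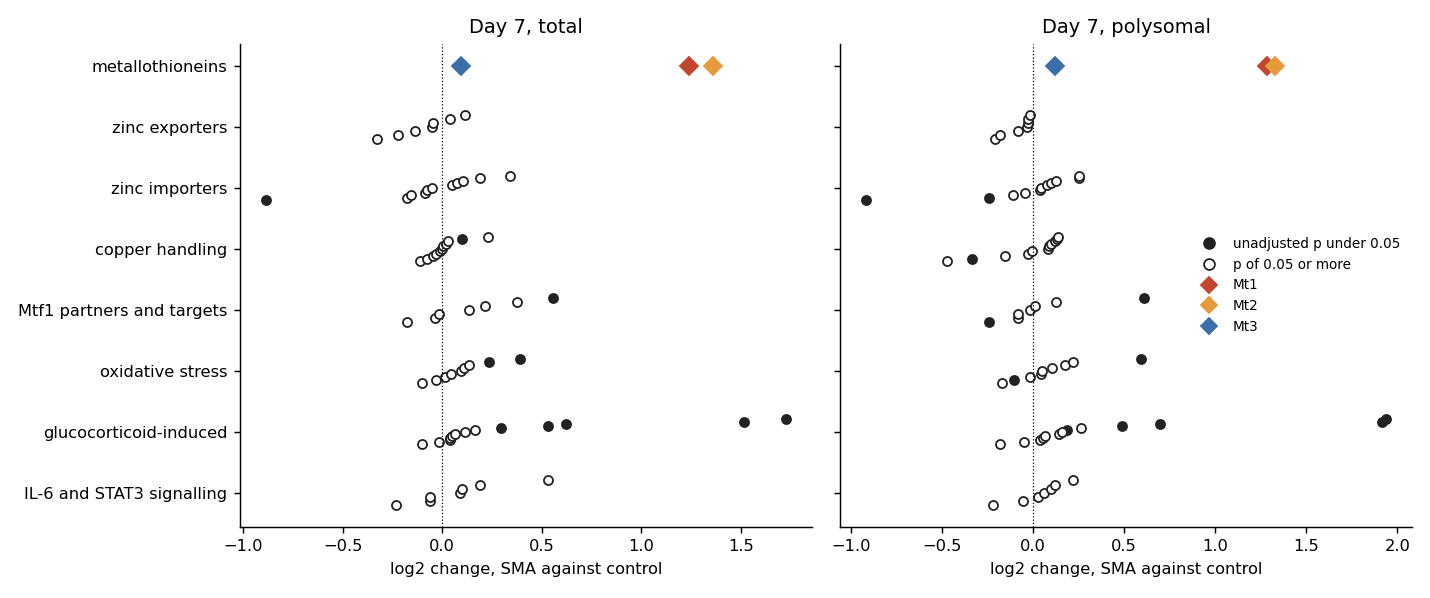
Log2 change between SMA and control at day 7 (horizontal axes) of the metallothioneins (diamonds) and of each tested gene of 7 lists (circles, filled where the unadjusted limma p was under 0.05), in total (left) and polysomal RNA (right). Mt1 and Mt2 lie between 1.24 and 1.36, beyond every zinc, copper and oxidative stress gene shown, and 2 glucocorticoid-induced genes, Fam107a and Sult1a1, lie further right.

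Markers of the cells of the brain moved with genotype in the same libraries. The libraries held neuronal and glial markers throughout: Stmn2, 1 of 6 neuronal markers, and Aldoc, 1 of 10 astrocyte markers, were at least 425.8 and 96.99 FPKM in every library. The most abundant neuronal marker was Stmn2 or Tubb3 and the most abundant astrocyte marker Aldoc, Slc1a2 or Slc1a3, depending on the library. Tubb3 was listed at 0 in both control polysomal libraries of day 5, where the summed level of the list was 1250 and 1484 FPKM, so no fold was taken for it, and no marker was at 0 in all libraries. In a whole brain, fewer cells of a type and less RNA per cell cannot be told apart. The counts of called markers compare with 9.54% and 10.7% of all genes in total and polysomal RNA of day 7, 8.25% and 12.5% at day 5, and 8.39% and 7.76% at day 5 without SMA replicate 1; a single call in a list of 5 or 6 is not read further. Of the 10 astrocyte markers 2 were higher and 0 lower in each fraction at day 7, Aldoc (log2 changes 0.77 and 0.79) and Fgfr3 (0.53 and 0.48), and the summed level was 562.6, 628.0 and 569.5 FPKM in control and 821.5, 718.3 and 652.9 in SMA total RNA. Aldoc alone went from a mean of 119.9 to 204.5 FPKM there, while Aqp4, a water channel of astrocyte endfeet named after its values were seen, stood at 53.1 in control and 44.4 in SMA, and the median log2 change of the 10 was 0.10. At day 5, 3 of the 10 were higher in total RNA, Slc1a2, the astrocyte glutamate transporter (0.66), Aldoc (0.51) and Fgfr3 (0.42), and 0 passed in polysomal RNA. Without SMA replicate 1 of day 5, 3 and 2 were higher in total and polysomal RNA. Of 5 choroid plexus markers tested 4 were higher at day 7 in each fraction, Ttr, Clic6, Aqp1 and Folr1, with 0 called at day 5. Their summed level in total RNA of day 7, nearly all of it Ttr, was 409.5, 408.9 and 380.0 FPKM in control and 821.5, 733.7 and 643.1 in SMA. At day 5 it was 774.8 and 728.0 in control and 414.6 and 802.8 in SMA, with the low value in SMA replicate 1, the library low in Mt1 and Mt2.

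Endothelial markers moved the other way: 6 of 7 were lower and 0 higher at day 7 in each fraction, and their summed level, led by Cldn5, was 46.3, 52.4 and 60.2 FPKM in control and 28.3, 32.0 and 27.5 in SMA total RNA. Tek, the angiopoietin receptor, fell by 1.65 on the log2 scale in total RNA of day 7 (adjusted p = 0.0404, limma), and Cdh5 and Kdr were among the 6 lower markers. At day 5, 6 and 4 of the 7 were lower in total and polysomal RNA, with median log2 changes of -0.63 in both, and 5 and 2 without SMA replicate 1, with medians of -0.60 and -0.51. Of 6 markers of meninges and fibroblasts 4 were lower in each fraction at day 7, Col1a1, Col1a2, Lum and Dcn, with summed levels, led by Igf2, of 176.8, 169.7 and 183.8 FPKM in control and 108.5, 137.2 and 138.1 in SMA total RNA. At day 5, 3 of the 6 were lower in each fraction, with median log2 changes of -0.39 and -0.44 in total and polysomal RNA, and 3 and 1 without SMA replicate 1, with medians of -0.43 and -0.21. Of 5 microglial markers 1 was higher, Aif1 (0.29), and 1 lower, P2ry12, in total RNA of day 7, and 0 of 5 passed in polysomal RNA. P2ry12 was also the 1 lower marker in each fraction at day 5, with log2 changes of -0.56 and -0.43 in total and polysomal RNA, and of -0.47 and -0.31, neither called, without SMA replicate 1. Of 5 oligodendrocyte markers 0 passed in any of the 4 comparisons of genotypes, and of 5 blood genes Hba-a2 was lower in total RNA of day 5 (-0.73) and Hbb-bt in polysomal RNA of day 7 (-0.62). Leaving out SMA replicate 1 of day 5, the change of Hba-a2 was -0.71 and not called, and 1 blood gene was called higher, Alas2 (0.57), named after its values were seen. Of the 6 neuronal markers 1 was higher and 0 lower in total RNA of each stage, Map2, a microtubule protein (0.37 at day 5 and 0.11 at day 7), while 4 of the 6 lay below 0 there and the median log2 change was -0.11 at day 5 and -0.08 at day 7. Without SMA replicate 1 of day 5, the day 5 median in total RNA was 0.02. Snap25, a synaptic protein, stood at -0.20 and -0.10 and Rbfox3 at -0.25 and -0.08, and neither passed. Without that replicate the day 5 changes of Snap25 and Rbfox3 were -0.13 and -0.01. Both were named after their values were seen. In polysomal RNA 0 passed at day 7, and at day 5 the 1 call was Tubb3, listed at 0 in the controls. With Tubb3 included, 5 of the 6 lay above 0 in polysomal RNA of day 5. The median log2 change there was 0.30, and 0.34 without SMA replicate 1. The part of any of these markers in the change of Mt1 and Mt2 was not tested.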

How the data were processed

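Per the labels and the study's methods, total cytoplasmic and polysomal RNA of mouse brains was made into libraries with a stranded total RNA kit, aligned with TopHat2 2.0.14 to GRCm38.p4 and quantified by the authors with Cufflinks 2.2.1 (Gencode annotation) as FPKM, deposited for 45700 genes with 2 decimals. Programs were run at default settings per the methods, which do not use strand. FPKM values carry no read counts, so no count model or detection limit was used, and the intervals given come from the spread between libraries (limma). The labels give only replicate numbers, and the replicates were taken as biological.

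Values were taken as log2(FPKM + 0.1), so fold changes of low genes are understated. The 15247 genes averaging 1 FPKM or more were fitted with limma 3.58.1 (R 4.3.3, moderated test, intensity trend), and p-values were adjusted over all of them by the Benjamini-Hochberg method. A gene was called at an unadjusted p under 0.05. Each genotype comparison used its own stage and fraction, and TE, stage differences and polysomal against total RNA were terms of joint models. Exact permutation tests, two-sided, used scipy 1.17.1. Fits were tested on simulated data.

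The 5 genes and all lists were chosen with earlier results of these data known, so no list is independent evidence. Named in every comparison were the 5 genes. From each list were named the genes with an unadjusted p under 0.05 and no overlap between genotypes, largest change first, up to 4 per direction. The most abundant markers of a list, Nr3c1 and the neighbours of the cluster were named besides, as were genes marked in the text as named after their values were seen. For Mt1, Mt2 and Mt3 the 5 genes highest in Pearson's r over the 20 libraries were named, among genes above 0 throughout. Selenow was matched under its older symbol.

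Same-numbered total and polysomal libraries deviated together at day 7 (r over 14335 genes was 0.29, 0.162 and 0.446 for the control pairs, and 0.401, 0.239 and 0.449 for the SMA pairs), and at day 5 with r of 0.0952 and 0.215. The main fits did not use this pairing and took all libraries as independent, for TE and polysomal against total RNA too. Same-numbered libraries were set together in the polysomal to total ratios of both days, and in the replicate block for TE and polysomal against total RNA. Alternatives covered the pseudocount, the filter, the scaling, transcript length (known for 99.4% of tested genes), one model over all libraries, a replicate block, the threshold and leaving out each replicate number. List counts and changes without SMA replicate 1 of day 5, and the length correction with other transcripts of each gene, were added after seeing the data.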

Additional observations from a re-analysis of the deposited data

How the results depend on the processing

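The rises of Mt1 and Mt2 at day 7 kept their direction and an unadjusted p under 0.05 in both fractions under every alternative run, with or without each replicate. The number of the 5 genes called changed with the threshold of adjusted p under 0.05 (0 in polysomal RNA of day 5, 1 in each fraction at day 7, and 2 for day 7 against day 5 in control polysomal RNA). It also changed without a filter on low values (1 in polysomal RNA of day 5) and with quantile normalization (1 for the TE change at day 7). With the transcript length correction it was 2 for polysomal against total RNA and 4 for day 7 against day 5 in control polysomal RNA. With the replicate block the count was 0 and 2 in total and polysomal RNA of day 5, and 2 and 2 at day 7. It was 0 and 0 for TE and 1 for polysomal against total. It was 3 and 3 for day 7 against day 5 and 0 and 0 for the stage differences, so the block changed no count. Only for TE and polysomal against total did the block join same-numbered total and polysomal libraries. In the other fits it joined equal replicate numbers of different mice, which says nothing about pairing. The length correction turned the direction of uncalled changes of Mtf1 (-0.10) and Slc30a1 (-0.015) in total RNA of day 5 and of the stage difference of Mt1 in polysomal RNA (-0.15), and the cause was not tested. With principal in place of longest transcripts, these values were -0.11, -0.029 and -0.10. Leaving out each replicate in turn gave 0 to 2 called genes in total and 0 to 2 in polysomal RNA of day 5, 0 to 2 for TE at day 5, 1 to 2 for polysomal against total RNA, and 0 to 3 and 0 to 1 for the stage differences in total and polysomal RNA. Log2 changes then ran from -0.25 to 1.24 for Mt1, -0.41 to 1.54 for Mt2 and -0.024 to 0.21 for Mtf1 in total RNA of day 5, from -0.023 to 0.12 for Mt1 and -0.18 to 0.068 for Mt2 in the TE change of day 7, and from -0.31 to 0.41 for Mt1 in the stage difference of polysomal RNA. At day 5 an arm left with 1 library was assumed to vary like the other. Of 417 alternative values for members and comparisons with no value in the report, 24 took the other direction, all of them for changes not called to begin with. The lack of read counts, 2 libraries per group at day 5 and 1 discordant SMA library there limit the day 5 results.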
